A study of Mus musculus with 15 samples.

Results

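The WNT receptors examined here were the Frizzled genes *Fzd1*, *Fzd2*, *Fzd3*, *Fzd4*, *Fzd5*, *Fzd6*, *Fzd7*, *Fzd8* and *Fzd10* and the receptor tyrosine kinase gene *Ror2*. These 10 genes were found by symbol in the matrix of normalized counts, which holds 16729 genes, and all 10 were present. They were measured by RNA-seq in mouse endometrial epithelial organoids, which are cultures of uterine epithelial cells grown in Matrigel. The 4 groups were control + vehicle (n = 3), control + A83-01 (n = 4), *Smad2/3* cKO + vehicle (n = 4) and *Smad2/3* cKO + A83-01 (n = 4). Control organoids came from mice with the alleles Smad2flox/flox; Smad3flox/flox, and the cKO organoids came from mice that carried these alleles together with Ltfcre/+. Every group therefore carried both floxed genes. The lactoferrin gene *Ltf*, which drives this Cre, is active in uterine epithelium, so deletion depends on its activity in each cell. A83-01 inhibits the kinases of ALK4, ALK5 and ALK7, the type I receptors upstream of SMAD2 and SMAD3, and the vehicle was DMSO. All organoids were grown in a medium that contained WNT3A-, R-spondin- and Noggin-conditioned media. The study's reporting summary gives a default age for its adult mice, which were of a mixed genetic background. No separate age is stated for the organoid donors. Its methods describe estradiol given to mice at weaning to induce *Ltf*-cre.

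Frizzled proteins are seven-pass membrane receptors whose extracellular cysteine-rich domain binds WNT ligands. Together with LRP5 or LRP6 they stabilize β-catenin through Dishevelled, and without these co-receptors they act in planar cell polarity and other β-catenin-independent signaling. ROR2 carries a related cysteine-rich domain, binds WNT5A and acts mainly in the β-catenin-independent branch. In the uterus, WNT signaling patterns the female reproductive tract and is needed for gland formation and implantation.

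The sequence upstream of the start of transcription was examined for *Ror2* and *Fzd1*, the receptor with the largest difference between control groups and the most abundant Frizzled gene with an upstream window outside annotated exons. The sequences are those of RefSeq on GRCm38.p6, 250 bases each, 5′ to 3′ on the strand of the gene. The *Ror2* window lies at chr13:53286125-53286374 on the minus strand and the *Fzd1* window at chr5:4758217-4758466 on the minus strand. Capitals mark matches on either strand to CAGAC (SMAD-binding element), GGCGCC (a GC-rich SMAD element), CTTTGA (TCF/LEF core) and TGANTCA (AP-1).
Ror2: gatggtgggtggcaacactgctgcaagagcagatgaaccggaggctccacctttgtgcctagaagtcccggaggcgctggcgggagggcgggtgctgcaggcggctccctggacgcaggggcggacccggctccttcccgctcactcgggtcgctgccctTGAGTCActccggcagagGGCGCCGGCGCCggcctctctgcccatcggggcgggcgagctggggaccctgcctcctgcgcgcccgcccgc
Fzd1: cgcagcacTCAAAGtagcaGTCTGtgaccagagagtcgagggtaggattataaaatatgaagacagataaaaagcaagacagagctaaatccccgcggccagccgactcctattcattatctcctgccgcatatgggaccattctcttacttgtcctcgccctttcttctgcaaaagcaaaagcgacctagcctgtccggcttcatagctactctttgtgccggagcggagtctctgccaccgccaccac
The *Ror2* window held 2 matches to GGCGCC and 1 to TGANTCA, and the *Fzd1* window held 1 match each to CAGAC and CTTTGA. Of 32851 mouse windows of the same length, 42.2% held CAGAC, 9.59% GGCGCC, 13.8% CTTTGA and 6.75% TGANTCA. The *Fzd7* window had no match to any of these motifs. The windows of *Fzd4*, *Fzd5* and *Fzd10* overlap annotated exons and are not printed, and that of *Fzd10* had 1 match to CAGAC and 2 to GGCGCC. Of the *Ror2* window, 73.2% of the bases were G or C, against a median of 52.4% over all windows.

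The sum of normalized counts lay between 20241771 and 24423127 in the 15 samples, and the log2 values of replicates correlated across genes with r between 0.914 and 0.970. *Smad2* had 1171 ± 149 normalized counts in control + vehicle (SD, n = 3) and 875 ± 43.8 in *Smad2/3* cKO + vehicle (SD, n = 4), and *Smad3* had 1624 ± 107 and 1576 ± 333. These values cover whole genes, deleted exons included, so they do not check the deletion. All 12 epithelial markers were in the matrix, and their summed level ranged between 692381 and 945165 in control + vehicle. It ranged between 303112 and 683004 with A83-01, between 217836 and 448492 in *Smad2/3* cKO + vehicle and between 236086 and 309877 with both. *Ltf* made up 61.0%, 45.9%, 43.0% and 31.3% of the summed level in this order. The 12 of 14 stromal markers in the matrix summed to 124 to 264, 23.9 to 191, 17.0 to 679.5 and 10.5 to 589 in the same order. The stromal markers did not move together: 6 of 12 had their highest mean in control + vehicle and 2 their lowest. *Twist1*, a mesenchymal transcription factor, ranged from 16.0 to 51.6 in control + vehicle and up to 1.24, 1.21 and 0 in the others. *Col6a3* had means of 33.0, 56.0, 182 and 167 in the same order, with wide spreads. *Lum* was near 0 in every group, with no sample above 4.30. The 4 of 7 smooth muscle markers summed to 73.9 to 219 in control + vehicle and 29.9 to 86.5 in the other groups. The 3 of 6 endothelial markers summed to 12.8 to 69.0 over all groups. The 7 of 8 leukocyte markers summed to 1332 to 2976 in control + vehicle and 2119 to 8811 in the other groups, mostly *Cd68* by group means. In *Smad2/3* cKO + vehicle *Lyz2* had a median of 45.8 and a highest sample of 3372. Median and highest were 6.36 and 351 for *Adgre1* and 13.2 and 153 for *Itgam*. For *Cd68* they were 3670 and 5184, for *Csf1r* 461 and 822, for *Ptprc* 235 and 309 and for *Cd79a* 13.7 and 21.5. Control + vehicle, in which most receptors below were highest, had the highest mean of the 4 groups for 10 of 12 epithelial, 6 of 12 stromal, 2 of 4 smooth muscle, 0 of 3 endothelial and 0 of 7 leukocyte markers, and the lowest mean for 4 of the leukocyte markers. The part of these markers in the results was not tested.

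In control + vehicle organoids the receptors formed a graded series when their normalized counts were divided by exon length. *Fzd6*, a receptor of the planar cell polarity type, was the most abundant at 203 ± 32.7 normalized counts per kilobase (SD, n = 3). *Fzd1* followed at 114 ± 26.6, *Ror2* at 74.2 ± 24.5 and *Fzd10* at 65.8 ± 22.3 normalized counts per kilobase. *Fzd8* stood at 48.3 ± 1.28, below all *Fzd10* samples. The lower part of the series held *Fzd5* (21.7 ± 7.18), *Fzd7* (17.7 ± 1.30), *Fzd3* (13.1 ± 6.31), *Fzd4* (8.13 ± 5.81) and *Fzd2* (4.90 ± 2.61). Ranges of neighbours overlapped between *Fzd1* and *Ror2*, between *Ror2* and *Fzd10* and between all neighbours from *Fzd5* down. In the other 3 groups *Fzd6*, *Fzd1*, *Fzd8* and *Fzd5* took the first 4 places in that order, with *Fzd6* and *Fzd1* apart from their neighbours. *Ror2* was ranked the ninth in control + A83-01 at 1.76 ± 2.11 and the sixth in both cKO groups, at 6.20 ± 4.25 with vehicle and 2.56 ± 2.31 with A83-01 (normalized counts per kilobase, SD, n = 4).

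**Figure D1:**
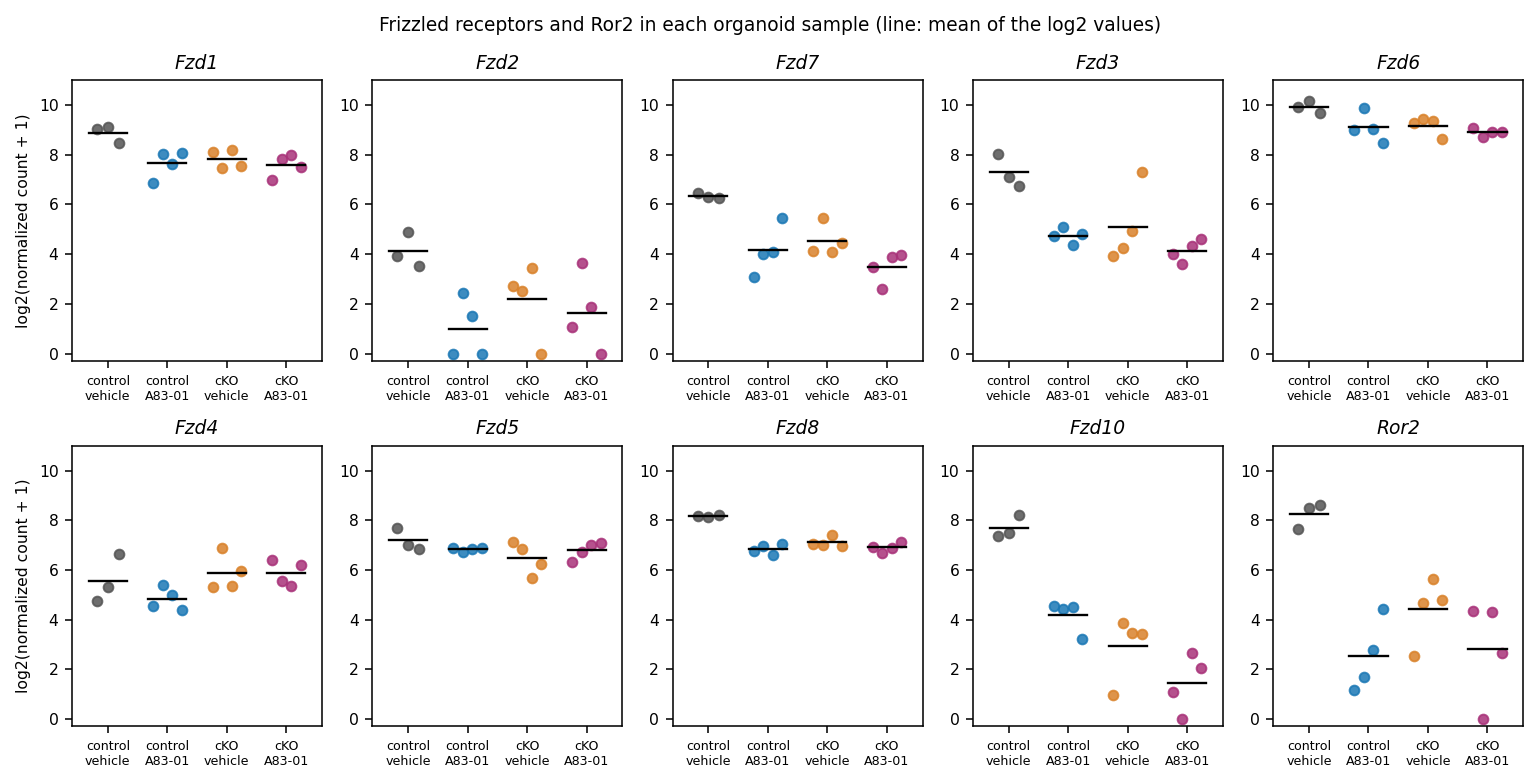
Normalized counts of the 10 receptor genes in each organoid sample, on a log2(normalized count + 1) axis, by group (control + vehicle, n = 3, and 3 groups of n = 4). Points are samples and lines are means of the log2 values. *Fzd1*, *Fzd7*, *Fzd8*, *Fzd10* and *Ror2* were highest in all 3 control + vehicle samples.

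*Ror2* and *Fzd10* fell when control organoids were given A83-01, and both were lower in *Smad2/3* cKO than in control organoids. *Fzd3* also passed the thresholds downward with A83-01. It did not pass in a fit that paired same-numbered samples, or with any 1 of the 7 samples left out. Organoids with both deletion and inhibitor had less *Ror2*, *Fzd10*, *Fzd3*, *Fzd7*, *Fzd8* and *Fzd6* than control + vehicle. No receptor passed the thresholds upward. A gene passed when limma gave a Benjamini-Hochberg adjusted p below 0.01 and it changed more than 1.4-fold in either direction, tested on log2(normalized count + 1) leaving out genes whose mean fell below 10 in the groups being tested. In bulk samples, fewer cells of a type and less RNA per cell cannot be told apart. All 3 of these comparisons use the same 3 control + vehicle samples.

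In control + A83-01 vs. control + vehicle, which asks for the effect of the inhibitor, 3 of 9 receptors tested passed downward, where 1.08% of the 13009 genes tested did so. *Fzd2* had a mean below the limit and was not tested. This fit did not pair same-numbered samples of the 2 groups, and *Fzd3* did not pass in a fit that did. The samples of the 2 groups did not overlap, with A83-01 lower, for 6 of the 9 receptors, against 11.5% of all genes tested. The median log2 fold change was −1.34 over the 9 receptors and −0.02 over all genes tested. The calls were lost when some samples were left out. Without any 1 of the 3 control + vehicle samples no receptor passed (adjusted p from limma up to 0.0285 for *Ror2*, 0.0228 for *Fzd10* and 0.0541 for *Fzd3*). Without control + A83-01 replicate 3 only 1 did. Over all genes, 295 passed in the full fit and 49 to 312 with 1 sample left out. In these fits the log2 fold change ran from −6.36 to −5.27 for *Ror2* and from −3.69 to −3.20 for *Fzd10*.

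In *Smad2/3* cKO + vehicle vs. control + vehicle, which asks for the effect of the deletion, all 10 receptors were tested and 2 passed downward, against 3.3% of 13149 genes. The groups did not overlap, with the cKO lower, for 7 receptors, against 16% of all genes. The median log2 fold change was −1.44 over the receptors and 0.00 over all genes tested. Again no receptor passed without any 1 of the control + vehicle samples, with adjusted p up to 0.0168 for *Fzd10* and 0.0309 for *Ror2* (limma), and 1 passed without *Smad2/3* cKO + vehicle replicate 2.

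In *Smad2/3* cKO + A83-01 vs. control + vehicle, 6 of 9 receptors tested passed downward, against 5.64% of 13097 genes. The groups did not overlap, with deletion and inhibitor lower, for 7 of the 9, against 16.9% of all genes. The median log2 fold change was −1.31 over the receptors and −0.01 over all genes. Without control + vehicle replicate 1 or replicate 2, 2 receptors passed. *Fzd3* and *Fzd10* passed with each of the 7 samples left out in turn.

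**Figure D2:**
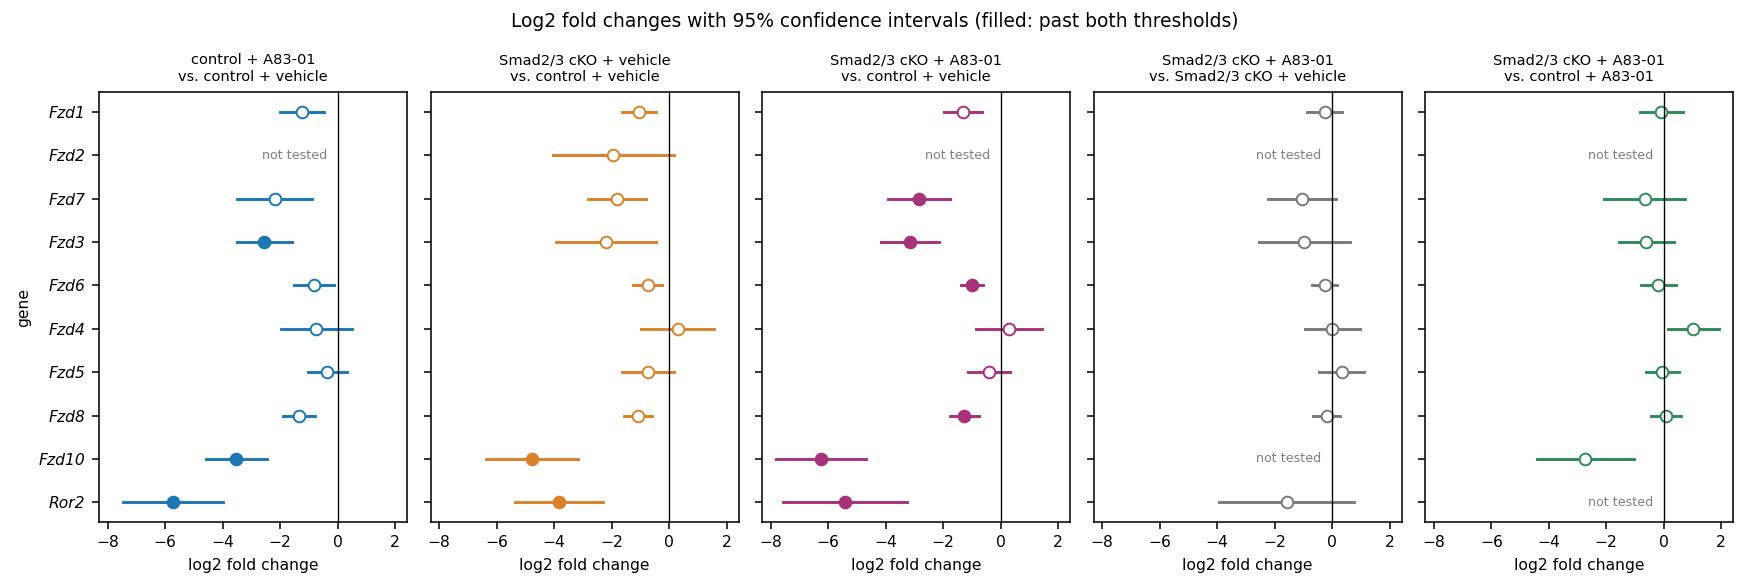
Log2 fold change of each receptor in 5 comparisons, with 95% confidence intervals from limma. Filled points passed both thresholds, and receptors with a mean normalized count under 10 in the samples compared are marked as not tested. The filled points lie to the left of 0 in the 3 comparisons with control + vehicle, and no point is filled in the other 2.

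*Ror2* (ENSMUSG00000021464, GRCm38 chromosome 13 from 53109312 to 53286124, minus strand, 11 merged exons) encodes the WNT5A-binding tyrosine kinase receptor. Its normalized counts were 197, 354 and 393.1 in control + vehicle. With A83-01 the control samples had 1.25, 2.26, 5.84 and 20.5. *Smad2/3* cKO + vehicle samples had 4.74, 24.7, 48.8 and 26.9, and *Smad2/3* cKO + A83-01 samples had 19.5, 0, 18.8 and 5.21. Every sample of the other 3 groups was thus far below the lowest control + vehicle sample, and those 3 groups overlapped each other. The log2 fold change was −5.72 with A83-01 in controls (standard error 0.77, limma adjusted p = 0.00384), −3.83 with the deletion (0.68, adjusted p = 0.00584) and −5.42 with both (0.97, adjusted p = 0.00374), each against control + vehicle. Treated samples of 3 normalized counts or fewer fix the size poorly, and over 9 other processing choices the first of these values ran from −6.36 to −4.28. It passed under all 9 of these choices. With the deletion and with both, *Ror2* passed under 6 of 9 (limma adjusted p up to 0.0179 and 0.0226). With each of 7 samples left out in turn, *Ror2* passed in 3, 2 and 3 fits of the 3 comparisons. *Ror2* of *Smad2/3* cKO + vehicle set directly against control + A83-01 gave 1.89 (0.91, adjusted p = 0.722, 95% interval −0.13 to 3.92).

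*Fzd10* (ENSMUSG00000081683, chromosome 5 from 128600844 to 128604093, plus strand, a single exon) encodes a receptor of the FZD4, FZD9 and FZD10 subfamily. Control + vehicle samples had 164, 181 and 297 normalized counts. Control + A83-01 samples had 22.4, 20.5, 21.6 and 8.25. *Smad2/3* cKO + vehicle samples had 0.952, 13.5, 10.1 and 9.76, and *Smad2/3* cKO + A83-01 samples had 1.10, 0, 5.37 and 3.13. No sample of another group came near the control + vehicle range, and the samples with both deletion and inhibitor were all below those of control + A83-01. The log2 fold change against control + vehicle was −3.53 with A83-01 (standard error 0.47, limma adjusted p = 0.00350), −4.77 with the deletion (0.71, adjusted p = 0.00300) and −6.25 with both (0.70, adjusted p = 0.000298). The last value ran from −7.42 to −4.15 over 9 other processing choices, since the mean of 2.40 with both is near the lowest level that can be measured. *Smad2/3* cKO + A83-01 against control + A83-01 gave −2.72 (0.76, adjusted p = 0.256), which did not pass.

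*Fzd4* (ENSMUSG00000049791, chromosome 7 from 89404355 to 89413134), of the same subfamily and also a receptor for Norrin, had 26.1, 38.8 and 99.1 normalized counts in control + vehicle. It had 19.9 to 41.4 with A83-01, 38.3 to 118 in *Smad2/3* cKO + vehicle and 39.3 to 83.9 in *Smad2/3* cKO + A83-01. The other 3 groups all overlapped the wide control + vehicle range. Log2 fold changes against control + vehicle were −0.74 (0.55, adjusted p = 0.490), 0.29 (0.57, adjusted p = 0.755) and 0.30 (0.51, adjusted p = 0.723) in the same order, from limma, with intervals reaching from −1.98 to 1.58. *Fzd4* and *Fzd5* had the smallest absolute log2 fold changes with deletion and inhibitor together.

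*Fzd8* (ENSMUSG00000036904, chromosome 18 from 9212163 to 9218136, a single exon) and *Fzd5* (ENSMUSG00000045005, chromosome 1 from 64730558 to 64737751) encode closely related receptors that signal with LRP6 to β-catenin. *Fzd8* had 287, 282 and 297 normalized counts in control + vehicle, the narrowest spread of any receptor in that group relative to its mean. It had 106, 122, 96.6 and 130.3 in control + A83-01, 133, 128, 168 and 122 in *Smad2/3* cKO + vehicle and 121, 102, 117 and 139 in *Smad2/3* cKO + A83-01. The 12 other samples all lay below the control + vehicle samples, and their 3 groups overlapped. The log2 fold change was −1.27 with deletion and inhibitor (standard error 0.23, limma adjusted p = 0.00372), which passed. It was −1.34 (0.24, adjusted p = 0.0130) with A83-01 and −1.07 (0.22, adjusted p = 0.0103) with the deletion, both just short of the adjusted p of 0.01. *Fzd5* had 207, 129 and 115 normalized counts in control + vehicle and 50.03 to 138 over the other groups, which overlapped with it. Its log2 fold changes were −0.36, −0.73 and −0.40 with adjusted p of 0.545, 0.241 and 0.416 (limma). *Fzd5* shares 1233 exonic bases with Gm38058 on the opposite strand, and the library does not keep the strand, so reads from the 2 cannot be told apart.

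*Fzd1*, *Fzd2* and *Fzd7* encode a subfamily of broadly expressed receptors, of which FZD7 is also known from intestinal stem cells. *Fzd7* (ENSMUSG00000041075, chromosome 1 from 59482424 to 59486955, a single exon) had 87.0, 76.9 and 76.7 normalized counts in control + vehicle. It had 7.45, 15.2, 15.9 and 42.8 in control + A83-01, 16.4, 43.2, 15.8 and 20.8 in *Smad2/3* cKO + vehicle and 10.1, 5.12, 13.9 and 14.7 in *Smad2/3* cKO + A83-01. The control + vehicle samples were close together and above all others, and the samples with both deletion and inhibitor had the lowest mean. The log2 fold change was −2.85 with both (standard error 0.48, limma adjusted p = 0.00283), and −2.18 (0.57, adjusted p = 0.0536) and −1.81 (0.45, adjusted p = 0.0232) with A83-01 and with the deletion alone. *Fzd1* (ENSMUSG00000044674, chromosome 5 from 4753839 to 4758035, a single exon) had 525, 559 and 351 in control + vehicle, 115 to 270.4 with A83-01, 176 to 291 in *Smad2/3* cKO + vehicle and 125 to 251 in *Smad2/3* cKO + A83-01. Its groups were also apart from control + vehicle, but none of the log2 fold changes of −1.22, −1.05 and −1.31 passed (adjusted p = 0.0647, 0.0263 and 0.0111, limma). *Fzd2* (ENSMUSG00000050288, chromosome 11 from 102604396 to 102608058, a single exon), another WNT5A receptor, had 14.4, 28.8 and 10.6 in control + vehicle and 0 to 11.5 over the other groups. It was at 0 in 2 of 4 control + A83-01 samples and was tested only for the deletion, where its log2 fold change was −1.94 (0.93, adjusted p = 0.179, limma).

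*Fzd3* and *Fzd6* encode the pair of receptors best known from planar cell polarity. *Fzd3* (ENSMUSG00000007989, chromosome 14 from 65192449 to 65262463, minus strand, 8 merged exons) had 259, 136 and 107 normalized counts in control + vehicle and 25.5, 33.2, 19.4 and 26.7 in control + A83-01. *Smad2/3* cKO + vehicle samples had 14.0, 18.002, 29.4 and 158, and *Smad2/3* cKO + A83-01 samples had 15.1, 11.1, 19.2 and 23.3. A single *Smad2/3* cKO + vehicle sample, replicate 4, thus lay inside the control + vehicle range. The log2 fold change was −2.55 with A83-01 (standard error 0.42, limma adjusted p = 0.00886) and −3.16 with deletion and inhibitor (0.45, adjusted p = 0.00108). The first did not pass in a fit with the replicate number as a block, which pairs samples with the same label number (adjusted p = 0.0130), or with any of the 7 samples left out (0.0119 to 0.0541), and it passed under 3 of 9 other processing choices. With the deletion alone it was −2.19 (0.77, adjusted p = 0.0779), and −2.93 (adjusted p = 0.00909) without replicate 4. *Fzd6* (ENSMUSG00000022297, chromosome 15 from 39006034 to 39038188, plus strand, 9 merged exons) had 976, 1134 and 819 in control + vehicle, 510.1, 950.4, 529 and 358 in control + A83-01, 618, 689, 662 and 392 in *Smad2/3* cKO + vehicle and 547, 423, 489 and 482 in *Smad2/3* cKO + A83-01. Only the control + A83-01 group, through replicate 2, overlapped control + vehicle. Its log2 fold change was −1.0001 with both (0.17, adjusted p = 0.00336), against −0.81 (0.31, adjusted p = 0.159) and −0.75 (0.22, adjusted p = 0.0471) with A83-01 and with the deletion (limma). *Fzd6* shares 152 exonic bases with Gm26704 on the opposite strand.

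Adding A83-01 to *Smad2/3* cKO organoids changed no receptor past the thresholds, and limma passed 0 of 12998 genes, or 0% of them. The 8 receptors tested, without *Fzd2* and *Fzd10*, had log2 fold changes from −1.59 (*Ror2*, 95% interval −3.92 to 0.75) to 0.33 (*Fzd5*, −0.45 to 1.11), all with adjusted p of at least 0.994. None of the 8 had an unadjusted p below 0.05, as 554 of all genes (4.26%) did. For *Fzd7* the log2 fold change was −1.04, with a 95% interval of −2.23 to 0.15 that includes 0. The interval of *Fzd8*, −0.67 to 0.29, was the tightest but for that of *Fzd6*, −0.69 to 0.19, so decreases of the size seen in control organoids for *Fzd8* fall outside it.

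Deletion in the presence of A83-01 also changed no receptor past the thresholds. In *Smad2/3* cKO + A83-01 vs. control + A83-01, 0 of 8 receptors passed in limma, against 0.0232% of all genes (3 genes), and 2 of the 8 had an unadjusted p below 0.05, against 9.52% of all genes. These were *Fzd10*, given above, and *Fzd4*, at 1.04 (standard error 0.40, adjusted p = 0.444). *Ror2* and *Fzd2* were not tested there. In *Smad2/3* cKO + vehicle vs. control + A83-01, limma passed 0 of 9 receptors tested and 0% of all genes, and 1 receptor, *Fzd4*, had an unadjusted p below 0.05, against 6.36% of all genes.

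The effect of A83-01 was compared between genotypes in a fit of all 15 samples. No receptor of 9 passed in limma, against 0.551% of 13066 genes, and 3 had an unadjusted p below 0.05, against 14.3% of all genes. All 9 differences were above 0, meaning a smaller decrease, or a rise, in cKO than in control organoids, with a median of 1.15 against 0.00 over all genes. The receptor with the smallest adjusted p was *Fzd8*, with a difference of 1.15 on the log2 scale (standard error 0.28, adjusted p = 0.0588). *Ror2* had a difference of 4.13 (1.41, adjusted p = 0.174) and *Fzd1* one of 0.97 (0.45, adjusted p = 0.345). These differences contain the control + vehicle samples and share them with the comparisons above. *Ror2* and *Fzd10* had means of 26.3 and 8.58 normalized counts in *Smad2/3* cKO + vehicle, against 315 and 214 in control + vehicle. Little room was left for a further decrease of these genes in cKO organoids, and *Fzd10* was too low to be tested there. The signs of the 9 differences are therefore not separate support for a difference between genotypes.

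Summed over the 9 Frizzled genes, control + vehicle organoids had 454 to 531 normalized counts per kilobase (mean 496 ± 38.9, SD, n = 3). With A83-01 the sum was 182 to 314 (224 ± 60.5), 186 to 260 in *Smad2/3* cKO + vehicle (238 ± 35.0) and 186 to 212 in *Smad2/3* cKO + A83-01 (198 ± 11.6, SD, n = 4 each). Control + vehicle was above all other samples, and the other groups overlapped. *Fzd9* is also in the matrix but is not among the receptors examined, so the sum and shares leave it out. Its means were 2.45, 4.36, 2.81 and 3.68 normalized counts per kilobase in the same order of groups. The share of *Fzd6* in the sum was 40.7% ± 3.47 in control + vehicle and 53.1% ± 10.7, 51.0% ± 5.10 and 50.9% ± 5.62 in the other groups. Group means of the *Fzd1* share were 22.7% to 23.5% with SDs of 3.78 to 7.67, and single samples ran from 15.04% to 33.1%. Those of the *Fzd8* share were 8.83% to 10.1% with SDs of 1.05 to 2.07. The share of *Fzd10* was 13.5% ± 5.71 in control + vehicle, 2.58% ± 1.13 in control + A83-01, 1.14% ± 0.71 in *Smad2/3* cKO + vehicle and 0.36% ± 0.34 in *Smad2/3* cKO + A83-01. Among the 9 Frizzled genes, without *Ror2*, the mix of the control + vehicle organoids thus differed from the rest most clearly in *Fzd10*.

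**Figure D3:**
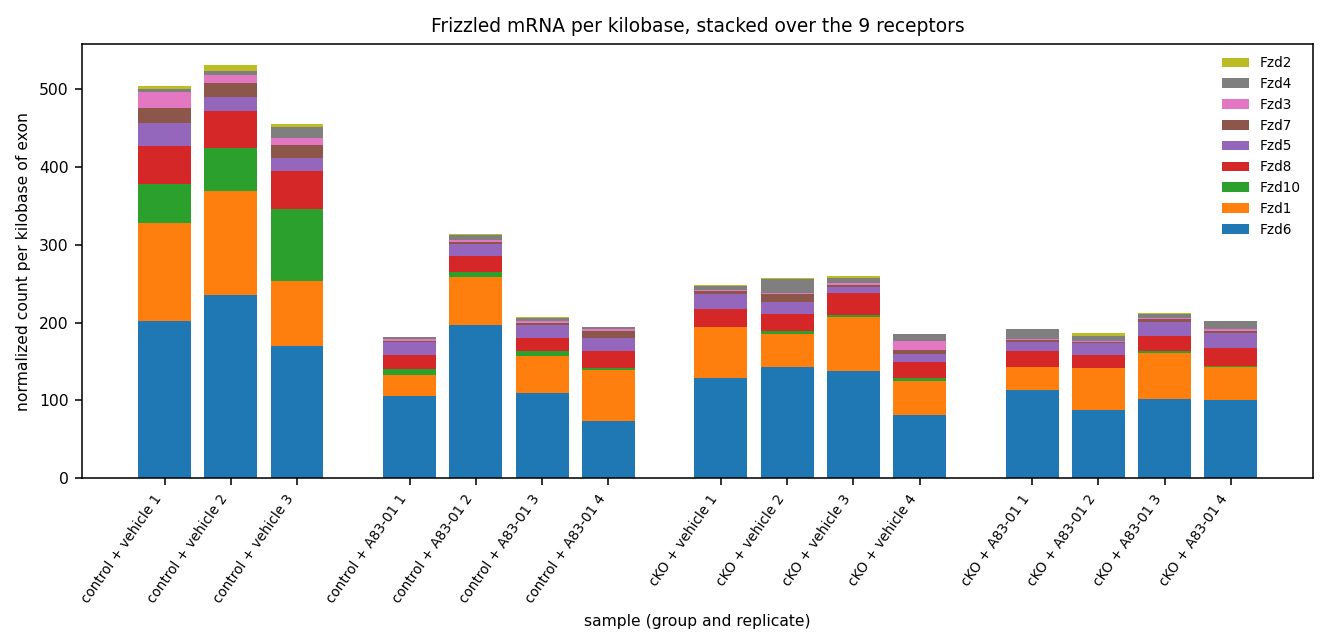
Normalized counts per kilobase of exon for the 9 Frizzled genes, stacked in each sample. The 3 control + vehicle bars reach 454 to 531 and the other 12 bars reach 182 to 314, and the *Fzd10* segment is wide only in the first 3 bars.

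The 5 lists of WNT pathway genes are read against all genes tested, of which 1.08%, 3.3% and 5.64% fell and 1.19%, 4.08% and 6.1% rose with A83-01, with the deletion and with both, and 22.2%, 33.7% and 35.3% had an unadjusted p below 0.05. Among WNT ligands, 1 of 6 tested fell and 1 rose with A83-01, 1 of 7 fell and 1 rose with the deletion, and 3 of 7 fell and 1 rose with both, each against control + vehicle. *Wnt9a* fell in all 3 comparisons, with log2 fold changes of −3.57, −2.80 and −3.32, and *Wnt5b*, a ligand of β-catenin-independent signaling, rose by 3.46, 4.08 and 5.15. *Wnt7a* and *Wnt7b*, ligands made by uterine epithelium, fell by 2.54 and 1.97 on the log2 scale with both. Median log2 fold changes of the ligands were −0.98, −0.29 and −0.13.

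Among co-receptors and receptor partners, 2 of 12 fell with A83-01 and 3 of 12 with the deletion and with both, against 1.08%, 3.3% and 5.64% of all genes, and none rose. *Ptk7*, a pseudokinase that binds WNT and Frizzled, had log2 fold changes of −0.92, −1.31 and −1.33, and *Smo*, a Frizzled-class receptor that transduces Hedgehog and not WNT signals, had −1.78, −2.36 and −2.43. *Gpc4*, a glypican that presents WNT ligands, fell with the deletion (−3.99) and with both (−4.51). Median log2 fold changes were −0.63, −0.60 and −0.49. Of the genes for Frizzled turnover and secreted WNT antagonists, limma passed 0 of 13 with A83-01 and 0 of 12 with the deletion, with 3 at an unadjusted p below 0.05 in each, near the 22.2% and 33.7% of all genes. *Tmem59* rose by 0.62 on the log2 scale with both, 1 of 12, where 6.1% of all genes rose. Median log2 fold changes were −0.48, −0.32 and −0.36.

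Of 21 Dishevelled and planar cell polarity genes tested, 0 passed in limma with A83-01 (5 at an unadjusted p below 0.05), 1 fell with the deletion and 2 fell with both. These counts are near the shares of all genes, 22.2% at an unadjusted p below 0.05 with A83-01, 3.3% lower with the deletion and 5.64% lower with both. *Vangl2*, a core polarity gene, had log2 fold changes of −2.09 and −2.19 in the last 2 comparisons, and the polarity cadherin *Celsr2* had −2.71 with both. Medians were −0.18, 0.02 and 0.02. Of 19 β-catenin targets and feedback genes, 2 fell and 1 rose with A83-01, and 6 fell and 1 rose in each of the other 2, where 1.08%, 3.3% and 5.64% of all genes fell and 1.19%, 4.08% and 6.1% rose. *Tcf7l1*, a TCF factor that mostly represses, had −4.44, −5.70 and −5.70, and the ephrin receptor gene *Ephb2* had −3.87, −4.98 and −6.84. The cyclin gene *Ccnd2* had −4.03 with the deletion and −4.29 with both. *Tnfrsf19* rose by 1.88, 2.38 and 2.29, and it was the listed gene whose A83-01 effect differed between genotypes (−1.97, adjusted p = 0.000863, limma). Median log2 fold changes of the targets were −0.62, −0.53 and −0.40. In the 3 comparisons without control + vehicle no gene of these 5 lists passed in limma.

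**Figure D4:**
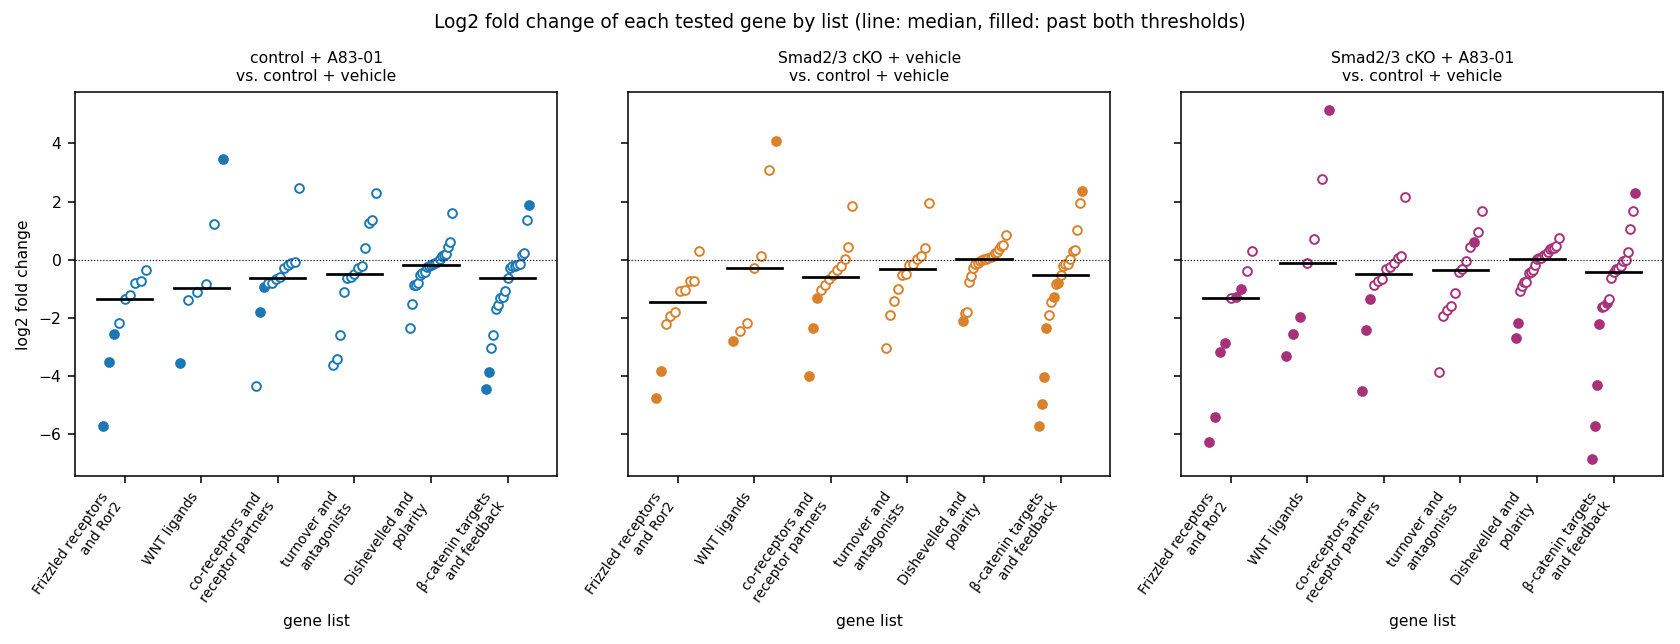
Log2 fold change of each tested gene by list, for the receptors and 5 lists of WNT pathway genes, in the 3 comparisons with control + vehicle. Points are genes, filled where both thresholds were passed, and lines are medians. The receptor medians of −1.34, −1.44 and −1.31 lie below those of the other lists, which run from −0.98 to 0.02.

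The genes whose log2 values followed those of a receptor most closely over the 15 samples were ranked by the root mean square difference after each gene was centred on its mean, among genes with a mean of at least 10. For *Fzd8* these were *Arhgef2* (0.17), *Ttll5* (0.24) and *Cdk20* (0.25). *Arhgef2* had 1156 ± 99.6 normalized counts in control + vehicle (SD, n = 3) and means of 520.5 to 542 in the other groups. For *Fzd6* they were *Ppfibp1* (0.18), *Rnf19a* (0.21) and *Fam102a* (0.21), and for *Fzd7* *Celsr2* (0.53), *Plekhm1* (0.62) and *Pcyt1b* (0.63). *Fzd3* was nearest to *Grb10* (0.69), *Slco5a1* (0.78) and *Sp6* (0.81). *Fzd10* was nearest to *Ephb2* (0.73), *Csgalnact1* (0.93) and *Nectin3* (0.95), and *Ror2* to *Smad7* (1.22), *Olfr1372-ps1* (1.33) and *Cdhr2* (1.34). *Smad7*, the inhibitory SMAD, had 218 ± 45.1 in control + vehicle (SD, n = 3), 15.1 ± 4.01 in control + A83-01, 44.1 ± 36.3 in *Smad2/3* cKO + vehicle and 9.78 ± 6.37 in *Smad2/3* cKO + A83-01 (SD, n = 4). The distances are larger for *Ror2* and *Fzd10*, whose own log2 values had standard deviations of 2.57 and 2.42 over the samples, against 0.54 for *Fzd8*.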

How the data were processed

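RNA was sequenced from 15 organoid samples in 4 groups, assigned from the sample labels. Per the labels, the authors made cDNA with an ultra-low input kit without strand information, and their processing notes name Salmon 1.4.0, DESeq2 1.32.0 and GRCm39. The deposited values are a signal per gene, namely estimated counts divided by a size factor per sample (median ratio to the geometric mean 1.01 in every sample). Whole reads could not be recovered, so no count test was run and raw depth is unknown. Positions and merged exon lengths are those of GRCm38. Fits used limma 3.58.1 under R 4.3.3 (lmFit, then eBayes with its trend option) on the samples of each comparison, with p adjusted over all genes tested, and the script was tested on simulated data. The receptors and gene lists were chosen with earlier results of these data known. Named were all 10 receptors, up to 4 genes past the thresholds per list and comparison with the largest change, and the 3 genes of nearest pattern for each receptor that passed. Same-numbered samples of control + A83-01 and control + vehicle deviated together (r from 0.354 to 0.423 for 3 pairs). Samples of these groups with different numbers had a mean r of −0.13, but r reached 0.347. The same-numbered samples also carry the same label numbers, so they are probably pairs. The main fits were unpaired, and only the replicate block used this pairing. Labels speak of different mice per genotype. Alternatives were pseudocounts of 0.1 and 10, no filter, a minimum of 50, quantile normalization, eBayes without trend, sample weights, the replicate block, a fit of all 4 groups, a threshold of 0.05 on adjusted p, no limit on fold and each sample left out. A planned comparison of protein sequences was not run.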

Additional observations from a re-analysis of the deposited data

Results flagged for a closer look

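A sample lay far from the other 3 of its group in 2 of 30 groups examined with Dixon's ratio at its 95% critical value, where chance gives about 1 in 20. *Fzd3* had 158 normalized counts in *Smad2/3* cKO + vehicle replicate 4, against 14.0 to 29.4 in the other 3 samples (ratio 0.894). *Fzd10* had 8.25 in control + A83-01 replicate 4, against 20.5 to 22.4 in the others (ratio 0.865).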

How the results depend on the processing

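Low counts limit what can be said of *Fzd2* and the lowest *Ror2* and *Fzd10* values, and 3 control + vehicle samples limit every comparison with that group. When each sample was left out in turn, the receptors past the thresholds numbered 0 to 2 with A83-01 in controls, 0 to 3 with the deletion and 2 to 6 with both. The replicate block gave 2, 0 and 1. In the first comparison it pairs samples and changed no call but that of *Fzd3*. In the other comparisons samples with the same replicate number were not paired (r from −0.171 to 0.375), replicate 4 had no partner among control + vehicle samples, and the cause of the lower counts was not tested. A label number is shared by *Smad2/3* cKO + vehicle replicate 2 and *Smad2/3* cKO + A83-01 replicate 1 (r = 0.355), a single pair that leaves no residual degrees of freedom for a block on label number. Another label number occurs in both genotypes (r = 0.0774 between *Smad2/3* cKO + vehicle and control + vehicle replicate 1), so these numbers may not mark a mouse in each case. An adjusted p below 0.05 gave 6 receptors with the deletion. The other alternatives gave 2 to 4, 2 to 3 and 5 to 7. In the comparisons without control + vehicle and in that of the A83-01 effect between genotypes no alternative gave a receptor past the thresholds. Over all genes, the counts ran from 49 to 955, 211 to 2413 and 568 to 2930.

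Directions turned for receptors that did not pass. For *Fzd4* with A83-01 in cKO organoids the log2 fold change was −0.00719 with a pseudocount of 10, −0.00434 with quantile normalization and −0.19 to 0.34 with samples left out. Samples left out gave −0.11 to 0.83 for *Fzd4* with the deletion, and −0.11 to 0.83 with both. For *Smad2/3* cKO + A83-01 vs. control + A83-01 they gave −0.35 to 0.12 for *Fzd1*, −0.14 to 0.11 for *Fzd5* (0.062 with sample weights), −0.39 to 0.075 for *Fzd6* and −0.0012 to 0.15 for *Fzd8*. For *Smad2/3* cKO + vehicle vs. control + A83-01 they gave −0.087 to 0.32 for *Fzd1*, −0.38 to 0.75 for *Fzd3* and −0.14 to 0.33 for *Fzd6*.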
